A study of Mus musculus with 18 samples.

Results

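The oligoadenylate synthetase (Oas) family of the mouse was followed through oocytes, cumulus cells and blastocysts. The 10 rows of the expression table whose symbol was Oas1a, Oas1b, Oas1c, Oas1d, Oas1e, Oas1f, Oas1g, Oas1h, Oas2 or Oas3 were taken, of 52550 rows in all, and each symbol had a single row. The table held 18 libraries from C57BL/6 mice in 6 groups of 3. Oocytes, cumulus cells (somatic follicle cells attached to the oocyte) and blastocysts (the embryo before implantation) each came from a PM2.5 group, exposed to fine airborne particles, and from a filtered-air group. The labels give no age, dose, length of exposure or number of pooled cells. They leave unsaid whether replicate libraries stem from different animals, so the p-values measure the spread between libraries, which may be technical.

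Oas enzymes sense double-stranded RNA and join ATP into short oligoadenylates. These act as second messengers of antiviral defense, and interferon raises the transcription of most active Oas genes. In the mouse the Oas1 gene was duplicated into a tandem cluster. Oas1a and Oas1g encode active synthetases, whereas several other copies, among them Oas1c, Oas1d and Oas1h, lack synthetase activity. Oas1d is known as an oocyte gene whose loss lowers fertility in female mice. The full-length Oas1b protein gives resistance to flaviviruses, and in laboratory strains such as C57BL/6 it is truncated. Oas2 and Oas3 encode larger proteins with repeated Oas units.

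The family lies on chromosome 5 in a single cluster of 191.3 kb, from base 120730333 to base 120921648 of the mouse assembly GRCm38.p6 (mm10). From the low end, the order is Oas2, Oas3, Oas1e, Oas1c, Oas1b, Oas1f, Oas1h, Oas1g, Oas1a and Oas1d. Oas1d (chr5:120914818-120921648, plus strand) is the last gene of the cluster, and Oas1e (chr5:120786312-120795530, minus strand) lies at the other end of the Oas1 block. Oas1c (chr5:120800194-120812540, minus strand) and Oas1b (chr5:120812635-120824163, plus strand) point away from each other across a gap of 94 bases. RefSeq lists Oas1b as a transcribed pseudogene and the other 9 members as protein coding. Oas1f (chr5:120847367-120857986) and Oas1h (chr5:120861422-120873506) lie side by side on the plus strand, and Oas1g (chr5:120876142-120887613) and Oas1a (chr5:120896256-120907544) lie side by side on the minus strand.

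Promoter sequences are shown because the cluster holds both interferon-inducible and oocyte-expressed copies, whose upstream regions can be read side by side. RefSeq promoters (GRCm38.p6) were at hand for 6 of the 10 members, Oas1a, Oas1c, Oas1f, Oas1g, Oas1h and Oas3, and not for Oas1b, Oas1d, Oas1e and Oas2. The core letters of the interferon-stimulated response element, GAAANNGAAA, were searched on both strands over the 250 bases before the start given in the promoter table, and 2.98% of 32851 promoters held them. They were present upstream of Oas1a, Oas1g, Oas1c and Oas3. Oas1a and Oas1g each held 2 overlapping matches, which end 5 and 3 bases before the start. Oas3 held 1 match, which ends 66 bases before the start, and Oas1c held 2 overlapping matches on the opposite strand. The Oas1c matches (chr5:120812613-120812622 and chr5:120812619-120812628) lie at the far end of its gap to Oas1b, which starts at base 120812635. Read on the Oas1b strand, their letters are those of the Oas1a and Oas1g matches. They lie upstream of both genes, and which gene they serve, if any, was not tested. The letters were not in the windows of Oas1f and Oas1h. Upstream stretches of 5 members follow, written 5′ to 3′ on the strand of the gene. Capitals mark the letters that match the motif or its reverse complement. The Oas1c stretch is the whole gap between the Oas1c and Oas1b genes. In Oas1a, Oas1c and Oas3 the start of the promoter table lies inside the span that RefSeq gives for the gene. The printed stretches of Oas1a and Oas3 overlap that span, and in Oas1a the matches lie almost wholly within it. The Oas1c stretch leaves out the bases inside the span.
Oas1a (minus strand, chr5:120907526-120907625): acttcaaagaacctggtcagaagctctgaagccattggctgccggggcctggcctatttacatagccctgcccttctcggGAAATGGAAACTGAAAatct
Oas1g (minus strand, chr5:120887614-120887713): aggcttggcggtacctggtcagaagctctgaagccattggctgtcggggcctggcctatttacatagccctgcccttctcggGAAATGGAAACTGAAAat
Oas3 (minus strand, chr5:120777660-120777759): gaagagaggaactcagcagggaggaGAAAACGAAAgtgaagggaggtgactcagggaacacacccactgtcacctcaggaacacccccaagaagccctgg
Oas1c (minus strand, chr5:120812541-120812634): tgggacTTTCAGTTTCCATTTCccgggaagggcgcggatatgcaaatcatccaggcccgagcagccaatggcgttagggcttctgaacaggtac
Oas1h (plus strand, chr5:120861322-120861421): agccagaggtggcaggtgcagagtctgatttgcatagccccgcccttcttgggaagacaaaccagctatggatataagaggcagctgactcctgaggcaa

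The Oas1a and Oas1g promoters were 86.9% identical over the 250 bases, and those of Oas1f and Oas1h 82.5%. The E-box CANNTG, the letters bound by basic helix-loop-helix factors such as the oocyte factor Figla, was in 66.22% of all promoters and occurred 2 times in each of Oas1f and Oas1h and in none of the other 4. The homeobox letters TAATTG and TAATTA and the TATA letters TATAAA were in 7.17%, 4.84% and 12.37% of all promoters and in none of the 6. A match is a description of the sequence and says nothing of whether a factor binds there.

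The values are the authors' normalized counts on a log2 scale after adding 1, so that a value of 0 means that the gene is listed at 0. Each library listed between 16426 and 17987 genes above 0. Read totals are not given by the deposited values, so no sampling interval is given and 3 libraries a group limit the precision. The tissue labels were checked against their markers. The mean log2 value over 10 oocyte markers was 6.94 to 7.72 in oocyte libraries, 1.23 to 1.87 in cumulus libraries and at most 0.41 in blastocyst libraries. The mean over 8 cumulus and granulosa markers was 4.62 to 4.93 in cumulus libraries and at most 0.74 in the others. The mean over 8 blastocyst markers was 6.71 to 7.07 in blastocysts and at most 2.03 in the others. Of these 3 lists, each library had that of its own tissue highest.

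Oas1d, the oocyte gene with no synthetase activity, was the most abundant member. Its log2 values in the 3 PM2.5 oocyte libraries were 9.47, 9.46 and 9.45, and in the 3 filtered-air oocyte libraries 9.20, 9.19 and 9.44. In cumulus libraries they were 1.66, 2.57 and 2.26 with PM2.5 and 1.40, 1.94 and 1.92 with filtered air. In blastocysts they were 0.08, 0 and 0.32 with PM2.5 and 0, 0 and 0.77 with filtered air. The 3 tissues did not overlap, in the order oocyte, cumulus, blastocyst.

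Oas1e, the closest relative of Oas1d, had log2 values of 8.71, 8.75 and 8.80 in PM2.5 oocytes and 8.44, 8.52 and 8.77 in filtered-air oocytes. Its cumulus values were 1.64, 2.30 and 1.66 with PM2.5 and 1.12, 1.47 and 1.98 with filtered air. Its blastocyst values were 0.49, 0.84 and 1.44 with PM2.5 and 0.27, 1.16 and 0.22 with filtered air. Oocytes stood above all other libraries, while cumulus and blastocyst libraries overlapped in the filtered-air group.

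Oas1c and Oas1h, which also lack synthetase activity, formed a lower tier. Oas1c had log2 values of 5.40, 5.85 and 5.81 in PM2.5 oocytes and 5.65, 5.55 and 6.54 in filtered-air oocytes. Its highest value elsewhere was 0.93 in cumulus libraries and 1.86 in blastocysts. Oas1h had log2 values of 4.90, 5.09 and 5.11 in PM2.5 oocytes and 5.19, 5.18 and 5.37 in filtered-air oocytes, and at most 0.32 in any other library. Both genes were clear of the other tissues in every oocyte library.

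Oas1b, truncated in this strain, was low but present in oocytes. Its log2 values were 1.98, 1.86 and 2.16 with PM2.5 and 1.82, 1.30 and 1.66 with filtered air, and no other library exceeded 0.21. Oas1f had its highest means in blastocysts, as Oas1g also did. The mean of Oas1a was 1.09 in filtered-air blastocysts and 0.99 in filtered-air cumulus libraries, which overlapped, and 0.83 in PM2.5 blastocysts. Oas1f had log2 values of 2.40, 2.16 and 1.76 in PM2.5 blastocysts and 2.07, 3.76 and 1.58 in filtered-air blastocysts. Its oocyte values were 1.13, 1.13 and 1.59 with PM2.5 and 1.54, 1.07 and 1.68 with filtered air, and in cumulus libraries it was listed at 0 in all but 1, at 0.08. Blastocysts lay above oocytes in the PM2.5 group and overlapped them in the filtered-air group.

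The active synthetases Oas1a and Oas1g were listed at 0 in all 6 oocyte libraries. Oas1a had log2 values of 0.43, 0.24 and 0.26 in PM2.5 cumulus libraries and 1.25, 1.05 and 0.68 in filtered-air cumulus libraries. In blastocysts it had 0.27, 1.73 and 0.50 with PM2.5 and 1.08, 1.28 and 0.90 with filtered air. Oas1g reached 0.58 in cumulus libraries and had 0.95, 0.99 and 1.10 in PM2.5 blastocysts and 0.52, 1.02 and 0.43 in filtered-air blastocysts. Both were low wherever they were above 0.

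The larger synthetases were nearly absent from the table's values. Oas2 was listed at 0 in every oocyte library and never exceeded 0.20. Oas3 had log2 values of 0.24, 0.29 and 0.20 in filtered-air oocytes and 0.01, 0.09 and 0 in PM2.5 oocytes, reached 0.19 in cumulus libraries and was listed at 0 in all blastocysts.

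**Figure D1:**
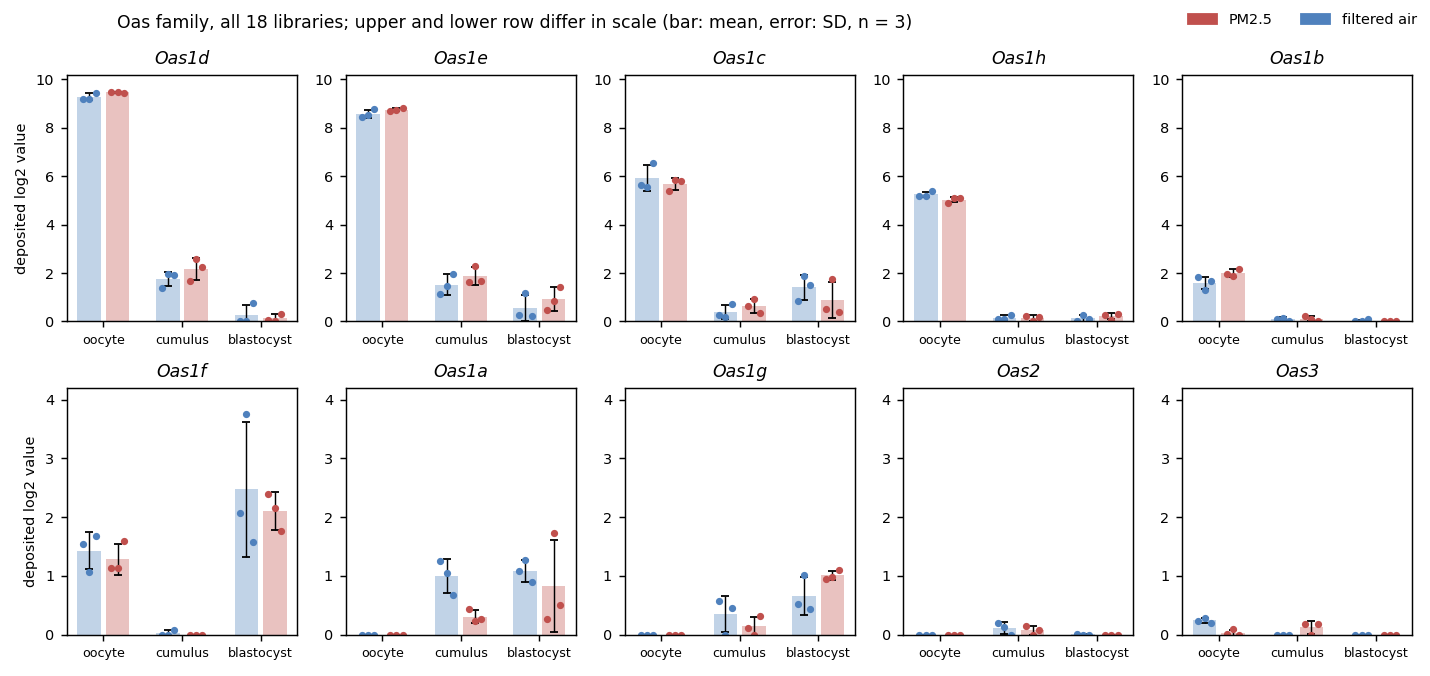
Deposited log2 values of the 10 Oas genes in oocytes, cumulus cells and blastocysts, with PM2.5 in red and filtered air in blue. Points are libraries, bars are means of 3 and error bars are SDs, and the upper and lower rows have different scales. Oas1d and Oas1e stand at 8.44 to 9.47 in oocytes, Oas1f is highest in blastocysts, and Oas1a, Oas1g and Oas2 are listed at 0 in all oocytes.

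Within oocytes the means over the 6 libraries ranked Oas1d, Oas1e, Oas1c, Oas1h, Oas1b, Oas1f and Oas3, on the linear scale as deposited and also after division by transcript length. Per kilobase of transcript the mean linear level over oocytes was 327.8 for Oas1d, 237.0 for Oas1e, 24.8 for Oas1c and 20.2 for Oas1h, and 1.36 or less for the rest. The deposited values may already be scaled in part by length, so this division may correct for it again. Neighbours in this order did not overlap in log2 value between Oas1d and Oas1e, nor between Oas1c and Oas1h within either exposure group. Oas1b and Oas1f overlapped in the filtered-air oocytes and did not in the PM2.5 oocytes. Copies this similar can share reads: the coding sequences were 90.8% identical between Oas1d and Oas1e, 96.0% between Oas1a and Oas1g, and 86.2% between Oas1c and Oas1e. How reads that fit several copies were assigned is not given in the sources used here, so the split of signal between such copies is uncertain.

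Summed on the linear scale, the family reached 1201 to 1239 in PM2.5 oocytes and 1021 to 1266 in filtered-air oocytes. The sum was 5.19 to 10.01 in cumulus libraries and 5.79 to 19.1 in blastocysts. Oas1d and Oas1e together made up 89.2% to 93.8% of the sum in oocytes, 54.2% to 88.4% in cumulus libraries and 3.56% to 30.4% in blastocysts. In blastocysts Oas1f held the largest share, 32.9% to 65.8% of the family sum. The family was thus made up of different copies in oocytes and in blastocysts.

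**Figure D2:**
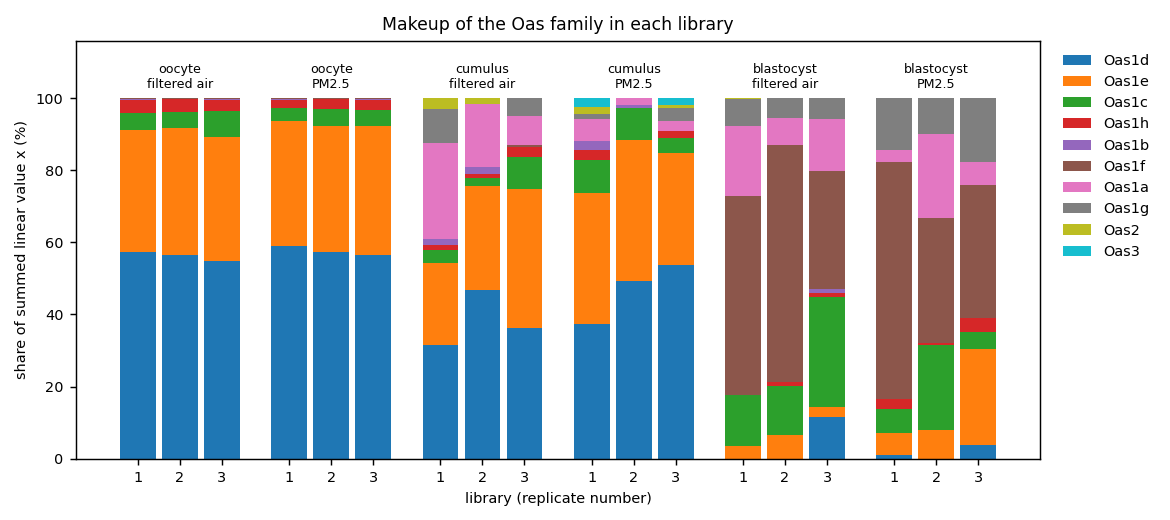
Share of the summed linear values of the Oas family that each member holds, in percent, for each of the 18 libraries. Oas1d and Oas1e fill 89.2% to 93.8% in oocytes, and Oas1f takes 32.9% to 65.8% in blastocysts.

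Along the chromosome, the oocyte-abundant copies did not lie together. Oas1e and Oas1c are neighbours, Oas1h lies 131.1 kb from the start of the cluster and Oas1d 184.5 kb, and the low copies Oas1b, Oas1f, Oas1g and Oas1a lie between them. Of the 3 nearest protein-coding genes on each side, Rph3a, a synaptic vesicle protein gene just beyond Oas1d, was above 0 mainly in oocytes, at a mean log2 value of 3.11 ± 0.48 (SD, n = 3) with PM2.5 and 2.86 ± 0.41 (SD, n = 3) with filtered air, and at most 0.07 elsewhere. Ptpn11, a tyrosine phosphatase gene, ranged from 2.77 to 4.34 in all tissues, and Rpl6, a ribosomal protein gene, was 1.15 to 1.58 in oocytes and 8.42 to 8.99 in the others. On the other side, Cfap73 was listed at 0 throughout, and Rasal1 and Dtx1 never exceeded 1.28.

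**Figure D3:**
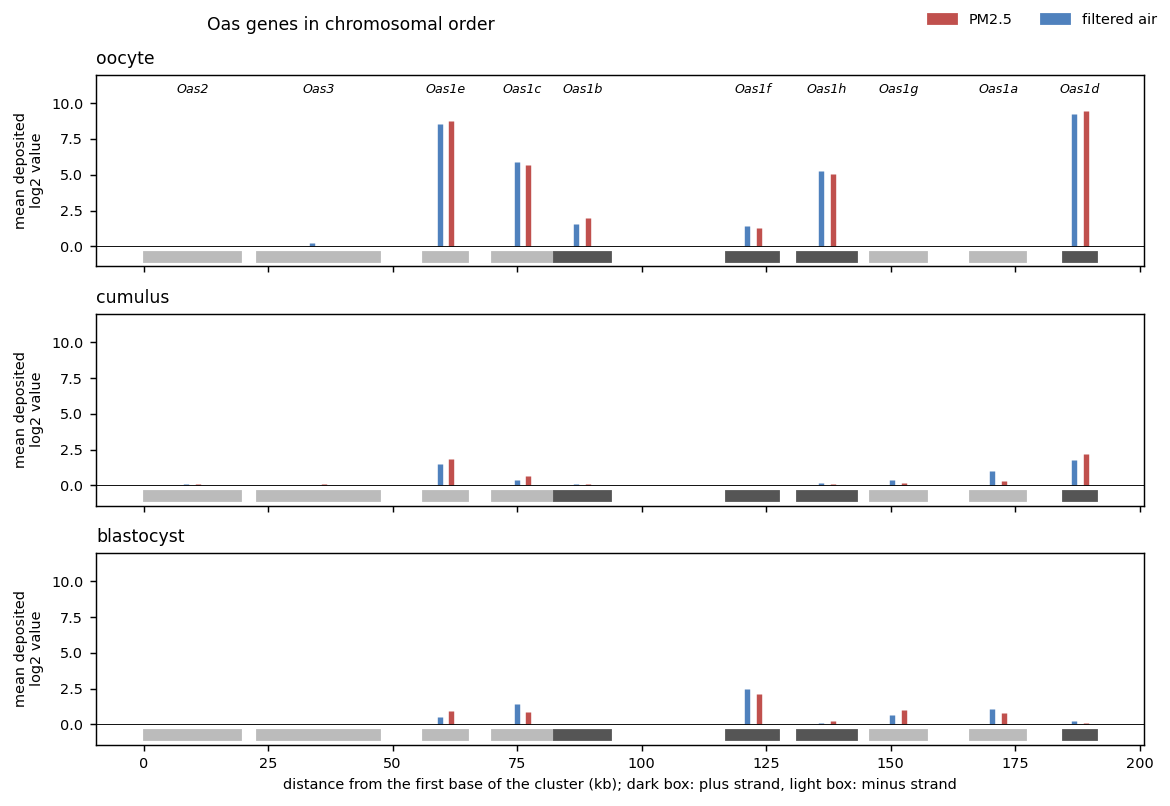
Mean deposited log2 values of the Oas genes in oocytes, cumulus cells and blastocysts, placed by distance from the start of the cluster in kilobases. High oocyte levels occur at Oas1e and Oas1c, at Oas1h (131.1 kb) and at Oas1d (184.5 kb), with low copies between.

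Tissues were then compared in each exposure group, with limma on the log2 values and Benjamini-Hochberg adjustment at a threshold of 0.05. A gene was tested where its mean over the 6 libraries was at least 3 and 3 of them were above 0. Of the 10 members, 3 could be tested between oocytes and each other tissue, Oas1c, Oas1d and Oas1e. All 3 were higher in oocytes than in cumulus cells, in filtered air, where 44.7% of tested genes were, and in PM2.5, where 44.4% were. They were also higher in oocytes than in blastocysts, in filtered air, where 39.5% were, and in PM2.5, where 39.6% were. These members entered the test through their oocyte values and so had to differ, and the oocyte pattern of the family was known when it was chosen.

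In filtered air Oas1d was higher in oocytes than in cumulus cells by 7.52 on the log2 scale (SE 0.17, limma adjusted p = 1.1e-08) and higher than in blastocysts by 9.02 (SE 0.23). In PM2.5 the log2 differences of Oas1d were 7.30 (SE 0.22) and 9.33 (SE 0.13). The log2 differences of Oas1e from cumulus cells were 7.05 (SE 0.22) in filtered air and 6.89 (SE 0.19) in PM2.5, and from blastocysts 8.03 (SE 0.26) and 7.83 (SE 0.23). Those of Oas1c were smaller, 5.52 (SE 0.29) and 5.05 (SE 0.20) from cumulus cells and 4.51 (SE 0.34) and 4.80 (SE 0.35) from blastocysts. In each of the 4 comparisons the difference was largest for Oas1d and smallest for Oas1c among these 3 copies.

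When the minimum mean was lowered to 1, Oas1h, Oas1b and Oas1f could be tested as well. Oas1h was higher in oocytes than in cumulus cells by 5.09 (SE 0.12) on the log2 scale in filtered air and by 4.90 (SE 0.14) in PM2.5, where 37.5% and 37.1% of tested genes were higher. Oas1b, testable in the PM2.5 group, was higher in oocytes by 1.89 (SE 0.13) than in cumulus cells and by 2.0 (SE 0.13) than in blastocysts. Oas1f was lower in oocytes than in blastocysts by -0.82 (SE 0.22, limma adjusted p = 0.0079) in PM2.5, and in filtered air its difference of -1.04 (SE 0.53, limma adjusted p = 0.101) did not pass. Oas1h and Oas1b passed the lower minimum through their oocyte values, so these differences too were fixed by the filter. Under it 36.9% of tested genes were higher and 50.4% lower in PM2.5 oocytes than in blastocysts.

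Between cumulus cells and blastocysts no member reached the minimum mean of 3. At a minimum mean of 1, Oas1f was lower in cumulus cells by -2.44 (SE 0.51, limma adjusted p = 0.0034) in filtered air, where 36.1% of tested genes were lower, and by -2.10 (SE 0.20, limma adjusted p = 4.3e-05) in PM2.5, where 33.1% were. Oas1d was higher in cumulus cells by 1.5 (SE 0.27) in filtered air, where 29.7% of tested genes were higher, and by 2.03 (SE 0.25) in PM2.5, where 30.1% were. Oas1f passed this minimum through its blastocyst values and Oas1d through its cumulus values, so their differences were fixed by the filter. Oas1e was higher in cumulus cells by 0.97 (SE 0.32, limma adjusted p = 0.029) in filtered air and by 0.94 (SE 0.30, limma adjusted p = 0.023) in PM2.5. Its means were 1.52 and 1.87 in cumulus cells against 0.55 and 0.92 in blastocysts. It too passed the minimum through its cumulus values, so its direction was set by the filter. With no filter neither difference of Oas1e passed (limma adjusted p = 0.0885 and 0.075), and the filtered-air libraries overlapped. Oas1a, tested in filtered air, differed by -0.09 (SE 0.21, 95% interval -0.58 to 0.39). Where RNA is taken from many cells, fewer cells that express a gene and less RNA per cell cannot be told apart.

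The cumulus level of Oas1d and Oas1e was set beside that of other oocyte transcripts. In filtered air the mean linear level in cumulus libraries was 0.390% of the oocyte level for Oas1d and 0.514% for Oas1e, and for 5 oocyte markers with a linear level of at least 100 it ranged from 0.335% to 0.579%. In PM2.5 it was 0.515% and 0.635%, against 0.576% to 0.885% for the markers. Gdf9, a growth factor made by the oocyte, had a mean log2 value of 3.43 ± 0.23 (SD, n = 3) in filtered-air and 3.88 ± 0.40 (SD, n = 3) in PM2.5 cumulus libraries. The part of oocyte RNA in the cumulus values of Oas1d and Oas1e was not tested. In blastocysts Oas1c was at 2.82% of its oocyte level in filtered air and 2.02% in PM2.5, while the same 5 markers were at 0.226% or less. The oocyte marker Zp2, a zona pellucida gene, was at 0.81% in filtered air and 2.33% in PM2.5. Its linear oocyte level of 39.1 to 53.6 is closer to the 51.0 to 62.4 of Oas1c. Other markers near that level were lower in blastocysts than Oas1c. Nlrp5, at 69.8 in filtered-air and 53.5 in PM2.5 oocytes, was at 0.041% and 0.06%. Zp1, at 41.7 and 30.5, was at 0.469% and 0%. Whether the blastocyst RNA of Oas1c was left from the oocyte was not tested.

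PM2.5 and filtered air were compared within oocytes for the 4 members that could be tested, and none was called by limma with Benjamini-Hochberg adjustment, where 0.221% of 4080 tested genes were. None of the 4 had an unadjusted p under 0.05 either, where 8.33% of tested genes did. Oas1d was at 9.46 ± 0.011 (SD, n = 3) with PM2.5 and 9.28 ± 0.15 (SD, n = 3) with filtered air, a log2 difference of 0.19 (SE 0.10, 95% interval -0.04 to 0.42, limma adjusted p = 0.652). Oas1e differed by 0.18 (SE 0.11, 95% interval -0.07 to 0.43). Oas1h differed by -0.22 (SE 0.11, 95% interval -0.48 to 0.04, limma adjusted p = 0.652). Oas1c differed by -0.23 (SE 0.27, 95% interval -0.85 to 0.40). All 4 intervals include 0, and that of Oas1c is the widest.

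Filtered-air oocyte replicate 3 had the highest filtered-air value of all 4 copies and the highest oocyte marker mean, 7.72 against 6.94 and 6.95 in the other 2. Without that library the log2 difference became 0.27 for Oas1d, 0.27 for Oas1e and -0.16 for Oas1h, and turned to 0.08 for Oas1c, with no member called. The unadjusted limma p was then 0.0115 for Oas1d and 0.0162 for Oas1e (limma adjusted p = 0.416 and 0.428). For Oas1h and Oas1c the unadjusted limma p was 0.223 and 0.61. At a minimum mean of 1, Oas1b differed between exposures by 0.41 (SE 0.19, 95% interval -0.04 to 0.86, limma adjusted p = 0.679) and Oas1f by -0.15 (SE 0.22), and neither was called, where 0.197% of tested genes were called.

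Whether the exposure groups overlapped was counted for every member, without a filter. In oocytes Oas1d and Oas1b lay wholly higher and Oas1h and Oas3 wholly lower with PM2.5, where 15.3% of the genes tested at a minimum mean of 3 and 9.62% of all genes above 0 in a library did not overlap. In cumulus cells Oas1a lay wholly lower with PM2.5, where 14.2% of genes above 0 in a library did not overlap. In blastocysts all members overlapped, where 7.15% of such genes did not. Tested with no filter, Oas3 in oocytes differed by -0.21 (SE 0.04, limma adjusted p = 0.629).

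**Figure D4:**
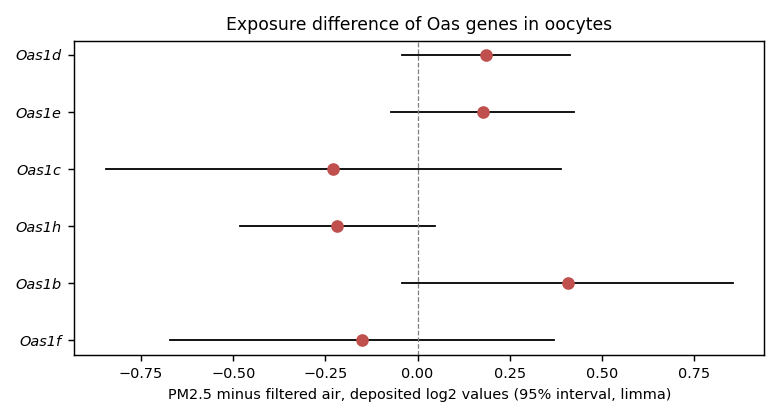
Difference in deposited log2 value between PM2.5 and filtered-air oocytes for 6 Oas genes, with 95% intervals from limma on genes with a mean of at least 1. Points right of the dashed line at 0 are higher with PM2.5, and all 6 intervals include 0.

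In cumulus cells and blastocysts no member reached the minimum mean of 3, and limma called 0.167% of 4780 and 0% of 4834 tested genes. In blastocysts 191 genes, 3.95%, had an unadjusted p under 0.05. At a minimum mean of 1, the log2 difference between exposures in cumulus cells was 0.41 (SE 0.28, 95% interval -0.24 to 1.06) for Oas1d and 0.34 (SE 0.28) for Oas1e. In blastocysts it was -0.53 (SE 0.41) for Oas1c and -0.37 (SE 0.51) for Oas1f. None of these was called, where 0.0763% of tested genes were in cumulus cells and 0.0199% in blastocysts. Oas1a in cumulus cells, tested with no filter, where 0.0224% of genes were called, differed by -0.68 (SE 0.18, limma adjusted p = 0.448), from 0.99 ± 0.29 (SD, n = 3) with filtered air to 0.31 ± 0.11 (SD, n = 3) with PM2.5.

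The effect of exposure was then compared between tissues in a fit of all 18 libraries. No member passed the minimum mean of 3 in both tissues of any pair. At a minimum mean of 1, the exposure difference in oocytes less that in cumulus cells was -0.22 (SE 0.33) for Oas1d and -0.17 (SE 0.40) for Oas1e. Less that in blastocysts it was 0.30 (SE 0.50) for Oas1c and 0.22 (SE 0.54) for Oas1f. None was called, where 0.241% of tested genes were against cumulus cells and 0.0335% against blastocysts.

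Genes linked to the synthetases' products were examined next. Abce1, a ribosome-recycling factor, was lower in filtered-air oocytes than in cumulus cells by -2.83 (SE 0.20, limma adjusted p = 4.3e-06) and than in blastocysts by -4.32 (SE 0.21), where 42.8% and 47.6% of tested genes were lower. Akap7, which degrades oligoadenylates in mouse cells, was higher in oocytes by 3.06 (SE 0.15) than in cumulus cells and by 2.72 (SE 0.22) than in blastocysts. Of all tested genes 44.7% and 39.5% were higher. The log2 values of Akap7 were 5.04, 5.02 and 5.02 in filtered-air oocytes and 4.76, 5.02 and 4.91 in PM2.5 oocytes. Abce1 and Akap7 each passed the minimum mean through the tissue where it was higher, so the direction of these differences was set by the filter. Pde12, another enzyme that degrades oligoadenylates, ranged from 2.07 to 2.97 over all 18 libraries. Mb21d1, the DNA sensor cGAS, whose fold is related to that of Oas enzymes, had log2 values of 4.30, 5.34 and 4.54 in PM2.5 oocytes and 4.40, 5.08 and 4.88 in filtered-air oocytes. It stayed at or under 0.25 elsewhere, and Tmem173, the adaptor STING that acts after it, was at most 0.05 in oocytes. Of the 7 genes of this list, 2 could be tested between filtered-air oocytes and cumulus cells, with 1 higher and 1 lower.

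All 10 interferon genes listed were at 0 in every oocyte and cumulus library, and 8 were at 0 in each blastocyst group. Ifnar1, a chain of the type I interferon receptor, had a mean log2 value of 1.35 ± 0.24 (SD, n = 3) in filtered-air oocytes and 4.08 ± 0.18 (SD, n = 3) in filtered-air cumulus cells. Ifnar2, the other chain, was at most 0.12 in oocytes and 3.52 to 4.02 in cumulus cells. Of the 18 interferon receptor and JAK-STAT genes, 4 could be tested between filtered-air oocytes and cumulus cells. In oocytes 3 were higher and 1 lower, where 44.7% of all tested genes were higher and 42.8% lower. The kinase genes Jak2 and Jak1 were higher by 2.95 (SE 0.15) and 1.21 (SE 0.11) and the phosphatase gene Ptpn11 by 0.53 (SE 0.14), while the receptor gene Il10rb was lower by -4.88 (SE 0.20). Lowering the minimum mean to 1 left 14 testable, of which 4 were higher and 9 lower, where 37.5% of all tested genes were higher and 48.9% lower. In oocyte libraries alone 6 of the 18 passed that minimum, and in cumulus libraries alone 14 did. A gene that passes only through its values in 1 tissue must lie higher there. These counts, at either minimum, were thus set in part by the filter.

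The interferon-stimulated genes had their highest mean in cumulus cells. The mean log2 value over the 42 genes listed was 0.62 to 0.71 in oocyte libraries, 1.80 to 2.26 in cumulus libraries and 0.40 to 0.53 in blastocyst libraries. The mean over 12 leukocyte markers was also highest in cumulus libraries, 2.07 to 2.48 against at most 0.172 in oocytes and 0.232 in blastocysts, and the part of leukocytes in the interferon-stimulated levels was not tested. Between filtered-air oocytes and cumulus cells 5 of the 42 could be tested. Ifi27, Bst2 and B2m were lower in oocytes by -6.13 (SE 0.16), -3.60 (SE 0.14) and -4.88 (SE 0.24), and Cmpk2, a nucleotide kinase gene, was higher by 2.12 (SE 0.17). Of all tested genes 44.7% were higher and 42.8% lower. A gene whose oocyte mean is under the minimum can pass only through its cumulus values and must then lie lower in oocytes, as Ifi27 did. With a minimum mean of 1, 21 could be tested, with 2 higher and 16 lower and a median log2 difference of -2.42, against -0.44 over all genes tested, of which 37.5% were higher and 48.9% lower. Between filtered-air oocytes and blastocysts 6 could be tested at that minimum, with 3 higher and 1 lower and a median of 1.44, against -0.55 over all genes tested, of which 36.8% were higher and 49.4% lower. In oocyte libraries alone 8 of the 42 passed the minimum of 1, in cumulus libraries alone 28 and in blastocyst libraries alone 4. The filter thus set in part the counts and medians of both comparisons. Oasl2, an interferon-induced relative outside the family's cluster, had a mean log2 value of 1.97 in filtered-air and 1.58 in PM2.5 cumulus cells, and at most 0.21 in any oocyte library.

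**Figure D5:**
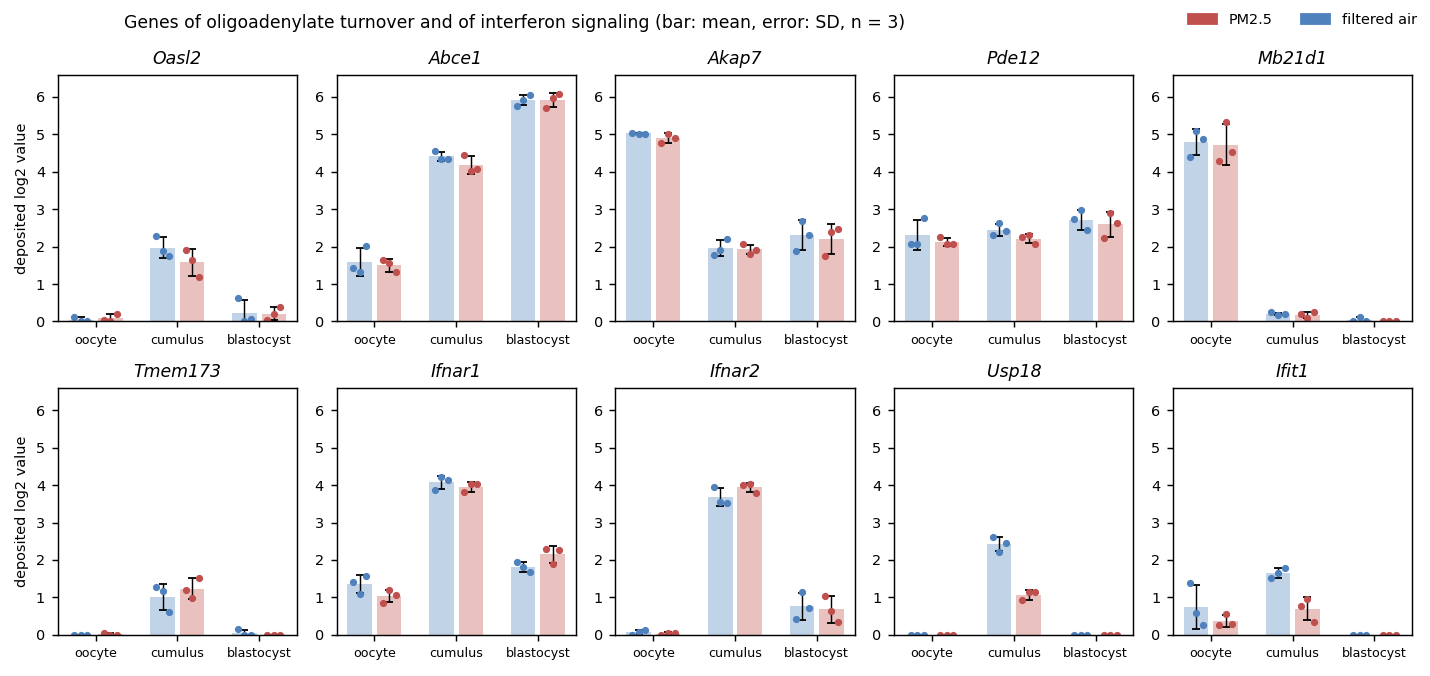
Deposited log2 values of 10 genes of oligoadenylate turnover and of interferon signaling in the 3 tissues, with PM2.5 in red and filtered air in blue. Points are libraries, bars are means of 3 and error bars are SDs. Oasl2 is at most 0.21 in oocytes, Akap7 and Mb21d1 are highest there, and Usp18 is at 0.92 to 1.14 in PM2.5 and 2.22 to 2.60 in filtered-air cumulus cells.

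Exposure differences of the same lists were read beside those of the Oas genes, and limma called no gene of any list in any tissue. In cumulus cells 9 interferon-stimulated genes were testable at a minimum mean of 3, with 5 above 0, 4 below and 2 at an unadjusted p under 0.05, where 23.3% of all tested genes were. At a minimum mean of 1 there were 28, of which 20 lay below 0, 8 above and 9 at an unadjusted p under 0.05, where 16.7% of all tested genes were, with a median log2 difference of -0.28 against 0.06 over all genes tested. The exposure groups did not overlap for 10 of the 28, and 9 of these were lower with PM2.5, where 22.1% of tested genes did not overlap. Usp18, which restrains interferon signaling, had log2 values of 0.92, 1.13 and 1.14 with PM2.5 and 2.60, 2.22 and 2.44 with filtered air. Its difference was -1.35 (SE 0.17, limma adjusted p = 0.0933 at a minimum mean of 1). Rtp4, a receptor transporter gene induced by interferon, had 2.73, 2.76 and 2.12 with PM2.5 and 3.40, 4.06 and 3.67 with filtered air, a difference of -1.18 (SE 0.24, limma adjusted p = 0.176). Ifi27, an interferon-induced gene, lay the other way, at 6.67, 6.56 and 6.83 with PM2.5 and 6.49, 6.24 and 6.11 with filtered air, a difference of 0.40 (SE 0.15, limma adjusted p = 0.188 at a minimum mean of 3). The exposure groups overlapped in none of these 3 genes, which lay in both directions.

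Markers of other cells were measured in the same cumulus libraries. The mean log2 value over 12 leukocyte markers was 2.07 to 2.28 with PM2.5 and 2.15 to 2.48 with filtered air, and 1 of the 12, the T-cell gene Cd3e, was at 0 in all 6 libraries. Of the 12, 3 could be tested between exposures at a minimum mean of 3 and all lay above 0 with PM2.5, with a median of 0.40 against 0.09 over all genes, and at a minimum mean of 1, 6 of 8 did. The mean over 8 stromal markers was 0.59 to 0.70 with PM2.5 and 0.40 to 0.45 with filtered air, with 1 at 0 in each group. Over 6 oviduct markers it was 0.23 to 0.54 and 0.14 to 0.20, with 2 and 3 at 0. The mean over 4 hemoglobin genes ranged from 0.44 to 7.30 with PM2.5 and from 0.46 to 7.64 with filtered air. The part of these cells in the cumulus values of Oas1a, Usp18, Rtp4 and Ifi27 was not tested.

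In oocytes 5 interferon-stimulated genes were testable between exposures, 3 above 0 and 2 below, with a median of 0.002 against -0.04 over all genes tested. Of the 5, 1 had an unadjusted p under 0.05, where 8.33% of all tested genes did. Bst2, a membrane protein that tethers budding viruses, differed by 0.85 (SE 0.17, limma adjusted p = 0.2015). In blastocysts 3 interferon-stimulated genes were testable, with 1 above 0, 2 below and 0 at an unadjusted p under 0.05, where 3.95% of all tested genes were. Of 16 sensors of double-stranded RNA, 4 were testable in oocytes, 2 in cumulus cells and 1 in blastocysts, and none was called. Between filtered-air oocytes and cumulus cells 3 of the 16 could be tested, and 2 were higher in oocytes, where 44.7% of all tested genes were. A sensor that passed only through its oocyte values had to be higher there. At a minimum mean of 1, 11 could be tested, with 4 higher and 3 lower. Of all genes tested at that minimum 37.5% were higher and 48.9% lower.

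Genes with profiles closest to the abundant members were found by the root-mean-square difference of log2 values over the 18 libraries, among 22791 named genes. For Oas1d these were Mos, the kinase that holds metaphase II arrest (0.241), Zar1, a maternal RNA-binding protein gene (0.251), and Klf17, a zinc finger transcription factor gene (0.251). For Oas1e they were Pkd2l2 (0.425), Pla2g4c, a phospholipase gene (0.432), and Nlrp14, an NLR family gene (0.490). For Oas1c they were Akap17b (0.467), Fam46c (0.497) and Pls1 (0.533), and for Oas1h they were Ccno (0.178), Il17f (0.183) and Pak7 (0.188). The nearest member to Oas1d was Oas1e (0.649), farther than any of these, and the nearest to Oas1c was Oas1h (0.830). A nearest member is the best of 9 genes, against 22791 for the others, and the measure also counts a constant difference in level. The Pearson r of Oas1d over the 18 libraries was 0.993 with Oas1e and 0.998 to 0.999 with Mos, Zar1 and Klf17.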

How the data were processed

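RNA from oocytes, cumulus cells or blastocysts was reverse transcribed directly after lysis, tailed, amplified over many cycles and sequenced from both ends, per the labels' protocols. The deposited values are log2 values of counts normalized by the authors, after adding 1. The submitters' processing notes name FastQC, Cuffnorm, DESeq 1.22.1 and the build mm10, with no role or order. Over 2510 single-transcript genes above 0 in all 18 libraries, log10 of the linear value fell by 0.856 per unit of log10 transcript length (SE 0.04). The values may be scaled in part by length, and the cause of this slope was not tested. Read counts are not given by the values and no count model was run.

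Differences were fitted with limma 3.58.1 (R 4.3.3; lmFit, eBayes with trend, two-sided, Benjamini-Hochberg over all genes tested). Each pair of groups was fitted by itself, and differences of differences in all 18 libraries. Alternatives were no filter, a minimum mean of 1, an added value of 0.1 in place of 1, quantile normalization, no mean-variance trend, the replicate number as a block and leaving out each library. The fits were tested on simulated data. Positions, promoters and neighbours came from RefSeq tables of GRCm38.p6. Coding identities and transcript lengths came from the GENCODE annotation of an older mouse build, used without coordinates. Motifs and identities were computed with Python 3.11.15.

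The members and gene lists were chosen with earlier results of these data known. All 10 members are described. The 3 most alike genes are named for each member with a mean of at least 3 in a group, as are the 3 nearest genes on each side of the cluster and, for a list, only some of the up to 4 tested genes with the smallest p. Pde12, Mb21d1, Tmem173, Ifnar1, Ifnar2, Oasl2 and the single markers were named after their values were seen. A gene of the pathway is not reported here.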

Additional observations from a re-analysis of the deposited data

How the results depend on the processing

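Of the counts of members called with at least 1 member tested, 63 stayed within 1.5 times of the reported count under the alternatives and 10 moved, all of them tissue counts under another filter on low values, where more members entered the test. In 89 further cases no member could be tested, so the count of 0 shows nothing. With no filter, 8 members were called between oocytes and cumulus cells and 8 between oocytes and blastocysts in filtered air, and 7 and 7 in PM2.5, against 3 in each, where 54.9%, 51.2%, 55.4% and 52.5% of all genes were called. Between cumulus cells and blastocysts it was 2 in filtered air and 3 in PM2.5, against 0, where 37.4% and 35.7% of all genes were. With a minimum mean of 1, 5 and 6 were called for oocytes against cumulus cells and blastocysts in PM2.5, where 86.7% and 87.3% of tested genes were, and 3 for cumulus cells against blastocysts in each exposure group, where 65.7% were in filtered air and 63.2% in PM2.5.

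Of the single-gene values, 182 kept their direction and their side of the threshold. The exposure difference of Oas1c in oocytes ranged from -0.41 to 0.085 with each library left out, and it turned positive without filtered-air replicate 3; the cause was not tested. Replicate numbers were treated as a block as an alternative: it changed no call, and 3 members were called between filtered-air oocytes and cumulus cells with the block as without it. The deviations of same-numbered libraries from their group means had r from -0.244 to 0.183. In PM2.5 oocytes and cumulus cells all 3 pairs were positive (0.119, 0.0593 and 0.115) and best with their own number, but in no comparison were all above 0.1, so the numbers are not taken to pair the libraries. Depth is unknown, so how small a difference could be seen in members near 0 is not known.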
